A study of Drosophila melanogaster with 6 samples.

Results

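Cytochrome P450 genes were followed in cultured S2* cells after exposure to the moulting hormone 20-hydroxyecdysone (20E). S2* is derived from S2, an embryonic line of Drosophila melanogaster with properties of macrophages. The members are the probe sets annotated with exactly 1 gene whose symbol begins with Cyp and a digit, apart from Cyp18a1, and they number 83 of the 18769 probe sets on the array, or 82 of 11982 named genes. That rule also takes in Cyp1 and Cyp40, which are cyclophilins (protein-folding isomerases) and no P450s. They are described apart, and the counts below refer to the remaining 81 probe sets of 80 P450 genes. The control group was 3 samples of untreated cells, and the treated group was 3 samples of the same cells given 1 µM 20E for 24 h, each measured on 1 Affymetrix Drosophila 2.0 array. Separate cultures are not stated in the labels. The p-values therefore reflect sample-to-sample spread that may be technical only. They name no solvent control and no time for the untreated cells, so effects of solvent or culture time and those of the hormone cannot be told apart. Both groups come from 1 cultured line.

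Cytochrome P450 enzymes are heme-containing monooxygenases that insert an oxygen atom into lipids, hormones and foreign compounds. Most insect P450s sit in the endoplasmic reticulum and take electrons from the reductase Cpr, sometimes with help from cytochrome b5, while a mitochondrial group uses ferredoxins. Insect P450s fall into large groups called clans. The CYP3 clan holds many enzymes that clear insecticides and plant toxins, the CYP4 clan many that act on fatty acids and hydrocarbons, and the CYP2 and mitochondrial clans include the enzymes that make ecdysone and turn it into 20E. Cyp18a1, which inactivates 20E, is left out of the members by the rule.

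Each array gave a linear intensity per probe set, with medians of 43.19 to 56.38 before normalization. Values quoted here are intensities after quantile normalization between arrays, and differences are in log2(intensity + 16), 20E minus untreated, which understates changes of dim probe sets. The array labelled 20E replicate 2 stood apart. It held 456 of the 736 empty cells of the table and 4 of the 5 empty cells among the P450 probe sets, and without it the calls over the whole array went from 957 to 1173, while they were 326 to 698 without any other array. Of 10 haemocyte markers, the 5 of plasmatocyte surface and secreted proteins Hml, Pxn, NimC1, eater and He had group means of 9.6 to 54.1 units. The collagen genes vkg and Col4a1, the GATA factor gene srp, the scavenger receptor gene crq and Nplp2 were the 5 that passed the test. Nplp2 was lower in 20E and the other 4 were higher, beside 3.02% higher and 2.08% lower over all probe sets tested. Nplp2 passed under all 14 other settings. The 4 higher calls were all lost without 20E replicate 1 or 3 or untreated replicate 2 or 3 (highest adjusted p 0.144), srp also without untreated replicate 1, Col4a1 without 20E replicate 2, and srp, Col4a1 and crq with an offset of 1. The summed intensity of the 10 markers was 7090 to 8750 units in untreated and 6560 to 9680 in 20E samples. Nplp2 alone made up most of each untreated sum and very little of each 20E sum. In the 20E samples, vkg and Col4a1 together made up most of the sum. The similar sums thus hide opposite changes of single markers and do not show that the marker signal was stable.

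After 20E, the transcripts of Cyp4e2 and Cyp6d4 rose and that of Cyp9f2 fell, while 78 of the 81 P450 probe sets did not pass the test. With limma and p-values adjusted (Benjamini-Hochberg) across the whole array, 2 P450 probe sets were higher and 1 was lower at an adjusted p under 0.05, or 3.7% of them. Over all 18767 probe sets tested, 5.1% passed, with 3.02% higher and 2.08% lower, so the share of P450 probe sets called was near that of the array as a whole. Across the array there were 567 higher and 390 lower calls, and 723 to 307 without normalization between arrays.

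Cyp4e2, of the CYP4 family, gave 32.4, 17.3 and 21.1 units in untreated replicates 1 to 3, and 409 and 378 units in 20E replicates 1 and 3, with an empty cell for 20E replicate 2. The treated values thus lay far above every untreated value. Mean intensity went from 23.6 ± 7.84 (SD, n = 3) to 394 ± 21.3 (SD, n = 2), a log2 difference of 3.39 ± 0.26 (SE, adjusted p = 0.00175), with a 95% interval of 2.76 to 4.02.

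Cyp6d4, a CYP3 clan gene of the CYP6 family, was near the bottom of the scale in untreated cells, at 8.14, 8.89 and 11.2 units in replicates 1 to 3. In 20E replicates 1 to 3 it reached 149, 97.9 and 155 units, so that the lowest treated value, that of replicate 2, was still well clear of the untreated ones. The log2 difference was 2.54 ± 0.23 (SE, n = 3 per group, adjusted p = 0.00158), with a 95% interval of 2 to 3.07.

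Cyp9f2 belongs to the CYP9 family of the CYP3 clan, whose members in honeybees are known for breaking down insecticides. Its intensity was 303, 185 and 165 units in untreated replicates 1 to 3 and 39.4, 27.8 and 24.6 units in 20E replicates 1 to 3. All treated values lay below all untreated values, and untreated replicate 1 was the highest. The log2 difference was −2.29 ± 0.28 (SE, n = 3 per group, adjusted p = 0.00589), with a 95% interval of −2.95 to −1.64.

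**Figure D1:**
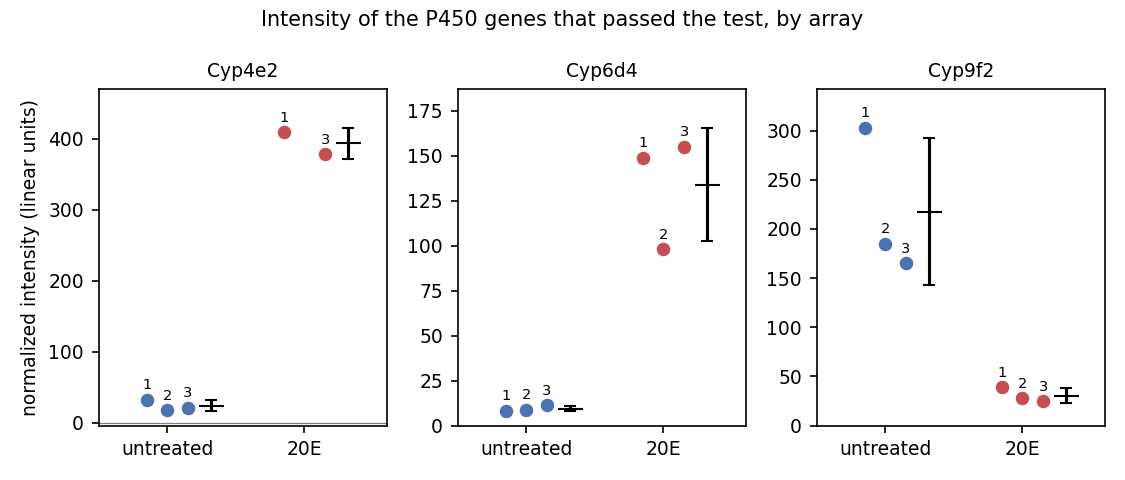
Normalized intensity (linear units, y axis) of Cyp4e2, Cyp6d4 and Cyp9f2 on each array of untreated and 20E cells (x axis). Points are arrays numbered by replicate, and bars give the mean and SD. For each of the 3 genes no treated value falls in the untreated range, and Cyp4e2 has no value on 20E replicate 2.

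These 3 calls held under all 14 other settings tried, including each array left out in turn, with a highest adjusted p of 0.0397. The sizes moved more, from 2.39 to 4.05 for Cyp4e2, from 1.42 to 3.68 for Cyp6d4 and from −2.77 to −1.54 for Cyp9f2, the extremes all coming from the offset added before the logarithm. With 20E replicate 1 or 3 left out, Cyp4e2 rested on 1 treated value, whose spread was taken to be that of the untreated group. Leaving out 20E replicate 2 removed no value of Cyp4e2, so that setting was no separate check of this gene.

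The other 78 P450 probe sets had log2 differences between −0.81 and 1.01, with 43 above and 35 below 0. For 41 of them the 95% interval lay within a 2-fold change in either direction (−1 to 1 on the log2 scale), and for the remaining 37 it reached beyond, so that a change of that size in one direction or both was compatible with the 6 arrays. Over all 81, the median difference was 0.05 and the quartiles −0.23 and 0.31, beside −0.02, −0.32 and 0.28 over all probe sets tested. The median size of the difference was 0.27 for the P450 probe sets and 0.30 for all.

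**Figure D2:**
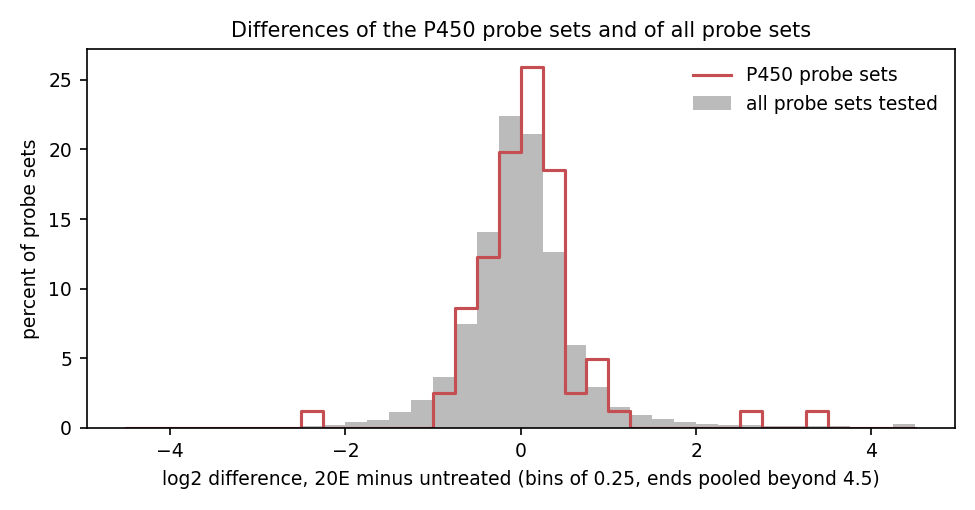
Distribution of log2 differences (20E minus untreated, x axis, bins of 0.25) as percent of probe sets (y axis), for all 18767 probe sets tested (grey bars) and the 81 P450 probe sets (red line). Both centre near 0, and the 3 P450 probe sets that stand away from the bulk are Cyp9f2 on the left and Cyp6d4 and Cyp4e2 on the right.

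At an unadjusted p under 0.05, 11 of the 81 P450 probe sets were found (8 higher, 3 lower), or 13.6%, beside 17.2% of all probe sets. Values of treated and untreated arrays did not overlap for 14 of the 77 P450 probe sets that had no empty cell, or 18.2%, beside 22.7% of all complete probe sets. Both shares were below those of the whole array. The 8 probe sets with an unadjusted p under 0.05 that missed the adjusted threshold had adjusted p from 0.0971 to 0.262, with 6 higher and 2 lower.

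The closest to the threshold was Cyp9c1, a family member of Cyp9f2 with the opposite sign. It gave 467, 259 and 294 units in untreated replicates 1 to 3 and 720, 646 and 611 in 20E replicates 1 to 3, without overlap (0.96 ± 0.26, adjusted p = 0.0971). Cyp9c1 passed without untreated replicate 1 (1.22, adjusted p = 0.0436) or without normalization between arrays (1.17, adjusted p = 0.0306), with an adjusted p of up to 0.332 elsewhere. The CYP9 members thus ranged from −2.29 for Cyp9f2 to 0.96 for Cyp9c1, with Cyp9h1 at 0.83, Cyp9b1 at −0.13 and Cyp9b2 at −0.45.

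Cyp6t1 and Cyp12c1 depended on a single treated array. Cyp6t1, of the CYP6 family, gave 28, 38.3 and 28.7 units in untreated replicates 1 to 3 and 86.3, 47.8 and 86.9 in 20E replicates 1 to 3. Cyp12c1, a mitochondrial P450, gave 5.67, 8.57 and 14.3 units untreated and 44.9, 17 and 44.6 with 20E. In both, 20E replicate 2 was the lowest treated array and the groups did not overlap. With all arrays they missed the threshold (0.88 ± 0.25, adjusted p = 0.118 for Cyp6t1, and 0.97 ± 0.30, adjusted p = 0.143 for Cyp12c1). Without 20E replicate 2 both passed, Cyp6t1 at 1.13 (adjusted p = 0.0285, and up to 0.357 under other settings) and Cyp12c1 at 1.22 (adjusted p = 0.029, and up to 0.364).

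**Figure D3:**
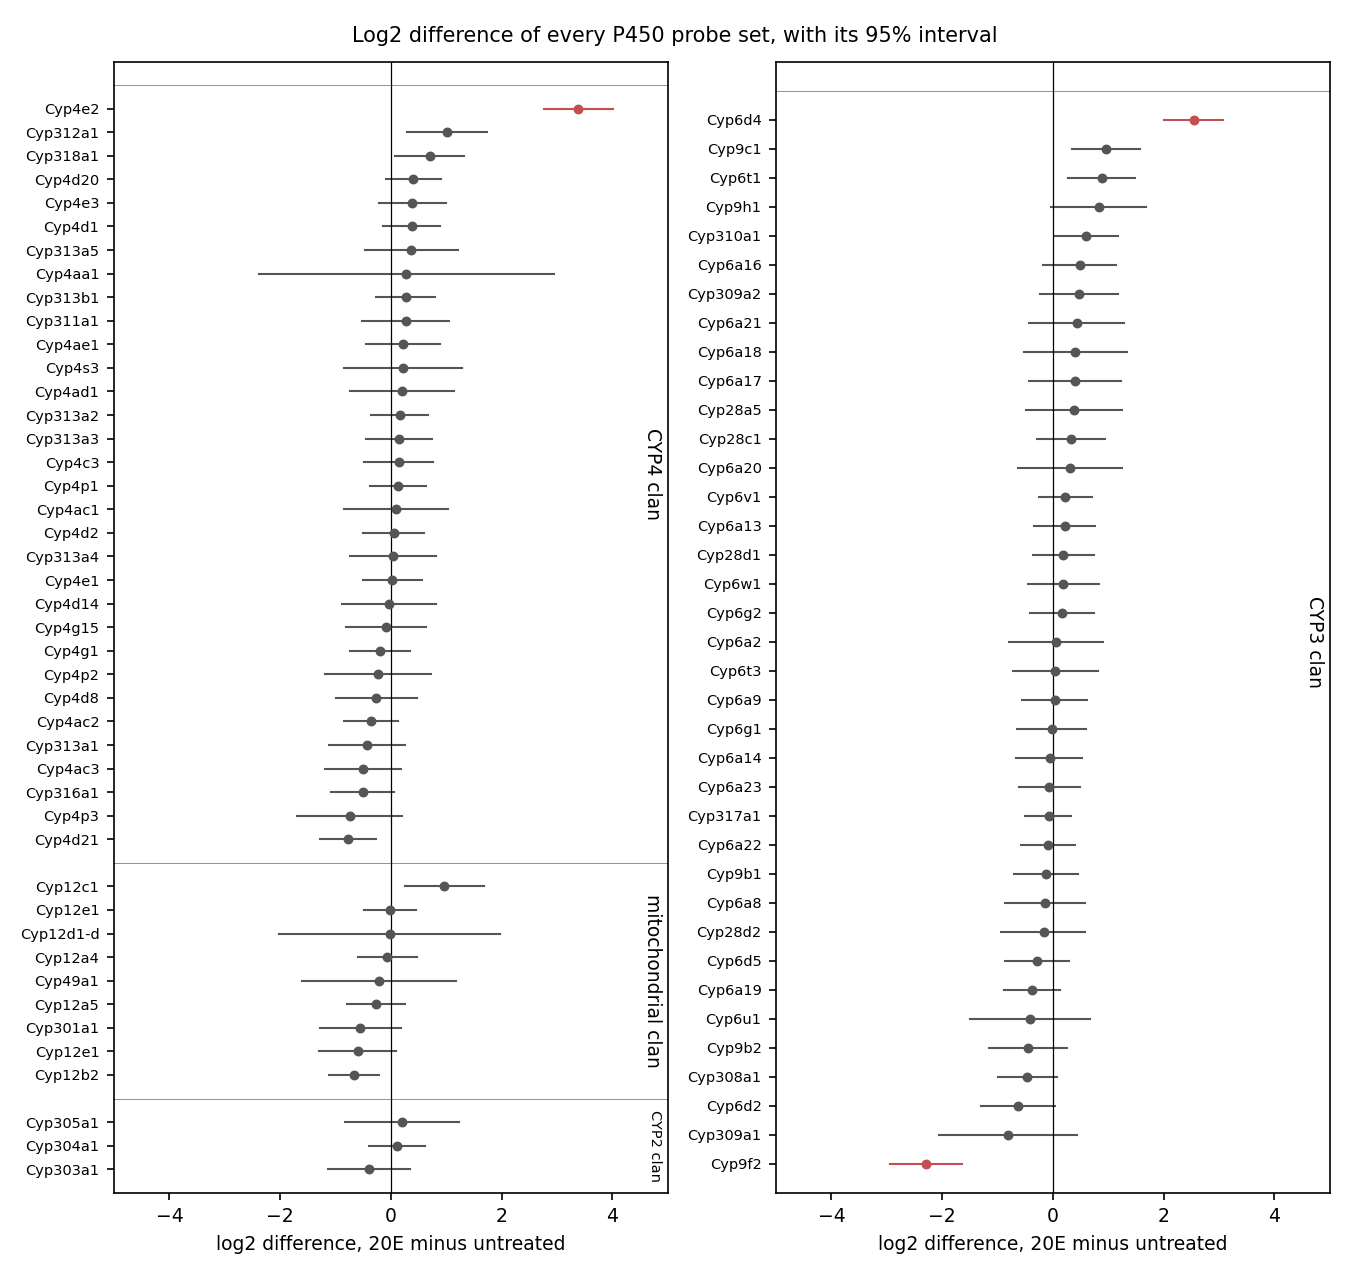
Log2 difference (20E minus untreated, x axis) of each of the 81 P450 probe sets, grouped by clan and ordered by size, with 95% intervals from limma. Red marks the 3 probe sets that passed the test, and the intervals of the others run mostly across 0.

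The CYP3 clan, with 37 probe sets, held 1 rise and 1 fall, and its median difference was 0.06. Its best known members are genes of insecticide resistance, and none of these passed. Cyp6g1, whose overexpression gives resistance to DDT and neonicotinoids, was at 51.6 ± 6.4 units untreated and 52.7 ± 21.6 with 20E (SD, n = 3 per group), a difference of −0.02 with a 95% interval of −0.64 to 0.60. Cyp6g2, its neighbour, differed by 0.16 ± 0.25 (SE) and Cyp6w1, linked to DDT resistance, by 0.19 ± 0.27. Cyp6a2 and Cyp6a8, which respond to phenobarbital in flies, differed by 0.06 ± 0.36 and −0.15 ± 0.31. The nicotine-responsive gene Cyp28d1 differed by 0.19 ± 0.24 and the aggression-linked gene Cyp6a20 by 0.31 ± 0.40. Cyp6a17, which affects temperature preference, differed by 0.40 ± 0.35, and Cyp6a23 by −0.07 ± 0.23. Cyp6a2, Cyp6a20, Cyp6a17 and Cyp6a23 were dim, averaging 11 to 17.2 units over the 6 arrays. Cyp6a17 was below 0 on 1 untreated array and Cyp6a20 on 1 treated array. The 95% intervals of these 2 genes reached up to 1.23 and 1.25. Cyp6t3, which acts in ecdysone synthesis in the prothoracic gland, was at 67.9 ± 35.4 and 65.5 ± 7.45 units (SD), a difference of 0.04 ± 0.32 (SE).

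A few further CYP3 clan genes are named for their bright probe sets. Cyp310a1 gave 325, 215 and 227 units in untreated replicates 1 to 3 and 443, 323 and 413 with 20E. Its groups overlapped by a single pair of arrays (0.60 ± 0.24, adjusted p = 0.262). Cyp28d2 differed by −0.17 ± 0.32 and Cyp6u1 by −0.41 ± 0.46. The 95% interval of Cyp6u1, from −1.5 to 0.67, did not exclude a 2-fold fall.

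In the CYP4 clan, Cyp4e2 was the 1 of 32 probe sets that passed, and the median difference was 0.14. Cyp4g1, which completes the synthesis of cuticular hydrocarbons in oenocytes, was at 63.6 ± 7.72 units untreated and 54.8 ± 16 with 20E (SD, n = 3 per group, log2 difference −0.19 ± 0.23). Its relative Cyp4g15, known from the nervous system, differed by −0.08 ± 0.30 with 2 treated values. Cyp311a1, which acts in lipid metabolism of the midgut, was at or below 0 on 2 of 3 untreated arrays and 1 of 3 treated arrays. Cyp4d21, known for a role in male mating behaviour, was at 13.5, 12.1 and 17.6 units untreated, and at 6.08, −25 and −67.9 with 20E. All its treated values were below the untreated ones, with 2 of them below 0 (−0.77 ± 0.22, adjusted p = 0.11). Its difference ran from −2.99 to −0.25 as the offset and other settings changed, and it passed under none. Cyp312a1 gave 22.4, 18.9 and 49.5 units untreated and 55.1, 82.9 and 86.7 with 20E, without overlap, and missed the threshold (1.01 ± 0.30, adjusted p = 0.131). Cyp318a1 likewise missed it (0.71 ± 0.26, adjusted p = 0.228). Cyp4d8, one of the brighter members, was at 109 ± 13.4 units untreated and 94.1 ± 46.5 with 20E (SD, n = 3 per group), a difference of −0.26 ± 0.31.

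Cyp4aa1 could not be judged. It gave 167, 1130 and 563 units in untreated replicates 1 to 3 and had a value on 1 treated array only, of 587 units. Its untreated replicate 2 lay far above untreated replicate 1, and the 95% interval of its difference ran from −2.38 to 2.94.

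None of the 9 mitochondrial probe sets, of 8 genes, passed. A difference below 0 was found for 8 of the 9 (median −0.22), beside 9812 of all 18767 tested. Some of these lay close to 0, such as Cyp12d1-d at −0.02 ± 0.84. Cyp12b2 gave 107, 96.2 and 86.8 units untreated and 48, 55.8 and 61.6 with 20E, without overlap, and did not pass (−0.66 ± 0.19, adjusted p = 0.116). Cyp12a4, known for resistance to lufenuron, differed by −0.06 ± 0.23, Cyp301a1, which acts in the formation of the adult cuticle, by −0.55 ± 0.30, and Cyp49a1 by −0.22 ± 0.58. Cyp12d1-d, a gene linked to insecticide resistance, has a near-identical neighbouring copy that its probes may also detect. Its values of 5.28, 145 and 78.1 units untreated and 87.4, 11.9 and 90.4 with 20E spread widely in both groups. Cyp12e1 was the 1 gene with 2 probe sets, at −0.60 ± 0.30 for the brighter and −0.01 ± 0.20 for the other, and neither passed.

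The CYP2 clan had 3 members on the list, and none passed. Cyp303a1, needed for sensory bristles, differed by −0.40 ± 0.31, and Cyp304a1 by 0.11 ± 0.22. Cyp305a1 was at 230, 189 and 192 units untreated and at 140, 493 and 185 with 20E. The treated value of replicate 2 was the highest of all 6 arrays, while that of replicate 1 was the lowest. Its mean difference of 0.20 ± 0.43 turned to −0.31 without 20E replicate 2.

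Among the 77 complete P450 probe sets, 20E replicate 2 was the highest treated array for 40 and the lowest for 25. The other treated arrays were highest for 22 (replicate 1) and 15 (replicate 3), and lowest for 22 (replicate 1) and 30 (replicate 3). Untreated arrays were highest for 33, 24 and 20 probe sets. The median SD of log2 values was 0.35 among treated and 0.25 among untreated arrays, with the larger SD in the treated group for 49 of 77. Without 20E replicate 2, the sign of the difference turned for 16 of the 81 P450 probe sets, none of which was called either way.

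Signals of the family were low for the most part. All values were under the common array median of 50.3 units for 44 of the 81 P450 probe sets (54.3%), beside 33.2% of all probe sets tested. Only 7 P450 probe sets (8.64%) were above it on every array with a value, beside 34.7%. At least 1 value at or below 0 occurred for 10 of the 81 P450 probe sets (12.3%), near the 10.1% of all probe sets tested. Brightness depends on the probes as well as on the amount of RNA, so these shares describe the signal at hand and not transcript number.

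P450 genes often lie in tandem, and the order of genes in the RefSeq table of assembly Release 6 plus ISO1 MT was used to see whether neighbours moved together. With up to 3 other genes allowed in between, 42 of the 80 genes fell into 14 runs of neighbouring members, and 38 stood alone. The longest run held 9 genes, from Cyp6a22 through the Cyp6a genes to Cyp317a1. None of its 9 genes passed the test, and their differences lay between −0.38 (Cyp6a19) and 0.43 (Cyp6a21). Part of this run had little signal. Cyp6a21 was at or below 0 on 2 untreated arrays and 1 treated array, and Cyp6a9 on 1 and 2. Cyp6a17 and Cyp6a20 each had 1 such value. Differences of such dim genes are understated and say little about whether neighbours moved together. Cyp4e2 lies between Cyp4ad1, at 0.21 ± 0.40 (adjusted p = 0.86), and Cyp4e1, at 0.03 ± 0.23 (adjusted p = 0.971). It was thus the 1 called gene of its run of 3. Cyp6d4 and Cyp9f2 are among the genes that stand alone.

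**Figure D4:**
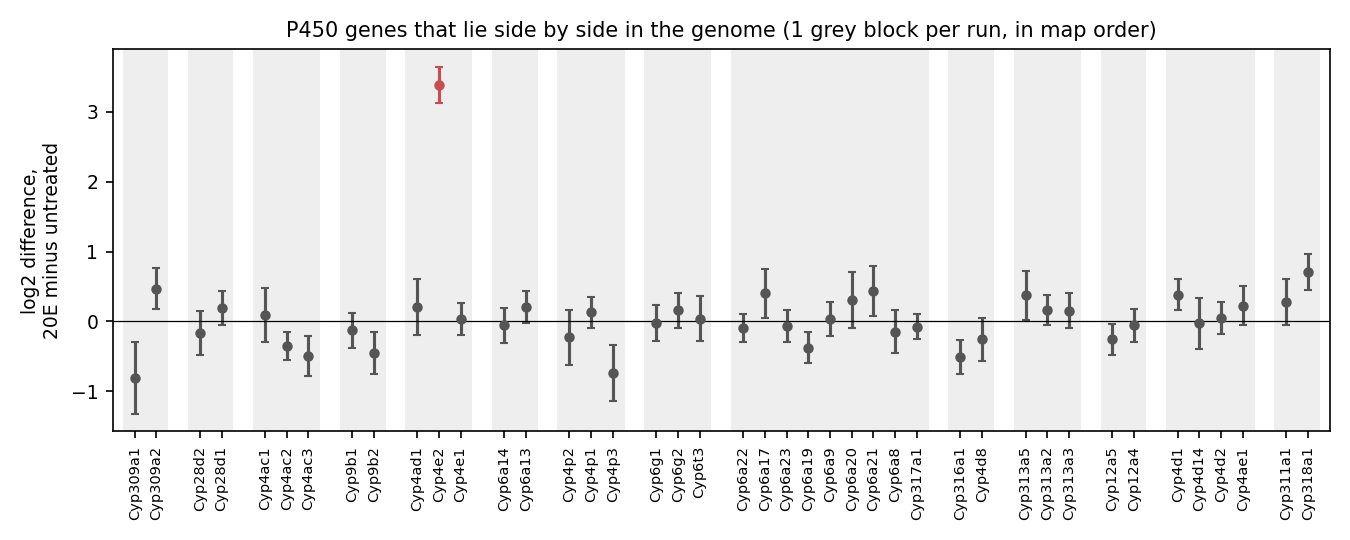
Log2 difference (20E minus untreated, y axis) with SE for the 42 P450 genes that lie in 14 runs of neighbouring P450 genes (grey blocks, in map order along the x axis). Cyp4e2, in red, stands at 3.39 while its neighbours Cyp4ad1 and Cyp4e1 are at 0.21 and 0.03, and no other gene in a run passed the test.

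The P450s that make, and the one that inactivates, the hormone itself stand outside the members. Of 7 listed, 6 were measured, namely Cyp18a1, dib, sad, shd, spo and spok, and phm was not analysed here. None of the 6 passed, with differences by the brightest probe set from −0.61 (dib and shd) to 0.49 (spo). The gene dib passed without 20E replicate 2 (−0.91, adjusted p = 0.0467, and 0.348 with all arrays).

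Genes that serve P450 enzymes were taken as lists. Calls in these and the lists below stand beside 3.02% higher and 2.08% lower over all probe sets tested. Of 4 redox partners measured, out of 6 listed, 1 fell and 3 did not pass. Cyt-b5, which encodes the electron carrier cytochrome b5, gave 1360, 1090 and 1090 units in untreated replicates 1 to 3 and 522, 529 and 591 with 20E. The groups were far apart (−1.08 ± 0.19, adjusted p = 0.0263). On leaving out 1 array, however, Cyt-b5 passed only without 20E replicate 2 (highest adjusted p 0.112), and it missed the threshold with an offset of 1, with median centring and with the replicate number as a block. The mitochondrial ferredoxin genes Fdx1 and Fdx2 differed by −0.36 ± 0.25 and 0.07 ± 0.21, and Cpr and dare were not analysed here.

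Heme is the cofactor of every P450. Of 7 genes of heme supply measured, out of 11 listed, 1 fell, and 6 did not pass, although all 7 differences were below 0 (median −0.94, beside −0.02 over all probe sets). Without normalization between arrays, or without untreated replicate 1, 6 of the 7 were below 0. Pbgs, which encodes porphobilinogen synthase, gave 466, 296 and 353 units untreated and 133, 119 and 192 with 20E (−1.24 ± 0.26, adjusted p = 0.0464). The call was lost on leaving out any 1 array (adjusted p 0.0738 to 0.174) and with an offset of 1. It was also lost with another normalization, with the replicate number as a block, or without probe sets matching more than 1 transcript. Coprox, for coproporphyrinogen oxidase, was at 554, 420 and 357 units untreated and 214, 225 and 192 with 20E. Urod, for uroporphyrinogen decarboxylase, was at 502, 342 and 349 and at 206, 173 and 212. Neither gene's groups overlapped, and both missed the threshold (−1 ± 0.22, adjusted p = 0.0553, and −0.94 ± 0.22, adjusted p = 0.0693). Both passed with an offset of 64 (adjusted p 0.0293 for Coprox and 0.0371 for Urod) and with dim probe sets filtered out, which raised the count of heme genes that fell to 3, and Coprox also passed with a trend and robust variance model. Their adjusted p reached 0.189 and 0.186 on leaving out 1 array. Alas, for the first enzyme of the pathway, differed by −0.10 ± 0.21.

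**Figure D5:**
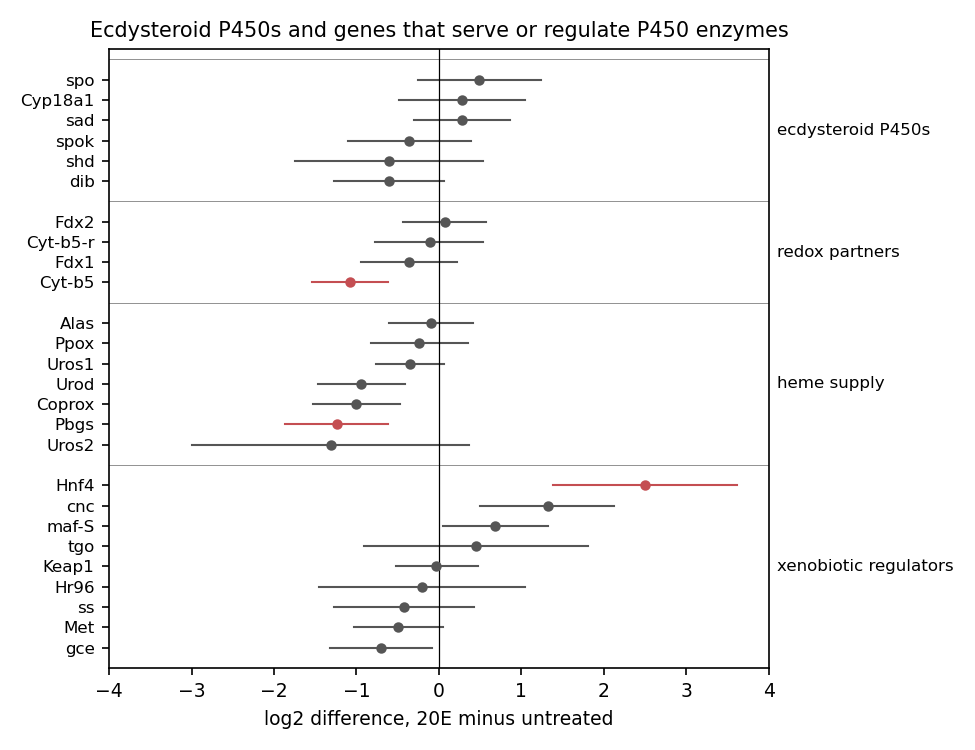
Log2 difference (20E minus untreated, x axis) with 95% intervals for measured ecdysteroid P450 genes, redox partners, heme synthesis genes and regulators of detoxification genes, by the brightest probe set of each gene. Red marks genes that passed the test, namely Cyt-b5 at −1.08, Pbgs at −1.24 and Hnf4 at 2.50.

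Of 9 regulators of detoxification and lipid genes, 1 rose. Hnf4, a nuclear receptor gene, was at 278, 109 and 118 units untreated and at 1210 and 747 units in 20E replicates 1 and 3, with no value for replicate 2 (2.50 ± 0.46, adjusted p = 0.0382, n = 3 untreated and 2 treated). Its call was lost on leaving out any 1 array other than 20E replicate 2 or untreated replicate 1 (highest adjusted p 0.208), and with an offset of 1. The Nrf2 homologue gene cnc gave 87.6, 75.8 and 130 units untreated and 190, 221 and 423 with 20E, without overlap, and missed the threshold (1.32 ± 0.34, adjusted p = 0.089), whereas it passed with the replicate number as a block (adjusted p = 0.0369). A second, dim probe set of cnc was at −0.15 ± 0.39. The partner gene of cnc, maf-S, differed by 0.68 ± 0.27 and its inhibitor gene Keap1 by −0.03 ± 0.21. By their brightest probe sets, gce and Met were lower in 20E without overlap and did not pass (−0.7 ± 0.26 and −0.49 ± 0.23). Of the 9 differences, 4 were above 0 and 5 below (median −0.03). Hr96, for a xenobiotic-sensing nuclear receptor, differed by −0.20 ± 0.52.

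Downstream of P450s, UDP-glycosyltransferases attach sugars to oxidised compounds. Of 35 measured genes, 1 rose and 1 fell, with a median difference of −0.12. These counts are near the shares of all probe sets tested, 3.02% higher and 2.08% lower. Ugt316A1 rose from 299 ± 25.1 to 595 ± 74.9 units (SD, n = 3 per group, adjusted p = 0.0405), and Ugt49B1 fell from 16.5 ± 4.41 to −2.01 ± 4.05 (adjusted p = 0.0459), with 2 of 3 treated values below 0. Both calls were lost on leaving out any 1 array (highest adjusted p 0.169 and 0.193). The call of Ugt316A1 was also lost with an offset of 1 and with the replicate number as a block. Ugt49B1 passed under 1 of 13 other settings, an offset of 1, and its log2 difference ran from −3.49 to −0.31. None of 4 multidrug transporter genes passed, and the differences of Mdr65 and MRP, the lowest and highest, were −0.14 and 1.03.

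Fat body, where many P450 genes are active in the fly, was represented by 4 measured markers. Fbp2 rose from 27.7 ± 13.9 to 561 ± 160 units (SD, n = 3 per group, log2 difference 3.74 ± 0.31, adjusted p = 0.00126), and apolpp, Lsp2 and Fbp1 did not pass. Fbp1 went the other way, from 42.3 ± 15.2 to 16.6 ± 1.97 units (SD), without overlap (−0.81 ± 0.24, SE, adjusted p = 0.135). Lsp2 and apolpp differed by 0.17 ± 0.23 and 2.08 ± 0.72 (SE), and apolpp was below 0 on 2 of 3 untreated arrays. The summed intensity of the 4 was 172 to 192 units in untreated and 646 to 940 in 20E samples, and Fbp2 alone made up most of each 20E sum. No marker of neurons (3 measured), muscle (2), salivary gland (5), Malpighian tubule (2) or oenocytes (4) passed. The part of the fat body markers in the P450 values was not tested. In RNA of whole cultures, fewer cells of a type and less RNA per cell cannot be told apart.

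The cyclophilin genes that share the symbol stem did not pass. Cyp1 was at 3430 ± 554 units untreated and 2500 ± 103 with 20E (SD, n = 3 per group), without overlap (−0.44 ± 0.20, adjusted p = 0.328). Cyp40 differed by 0.58 ± 0.27 (adjusted p = 0.349).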

How the data were processed

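For each array, the authors deposited intensity values on a linear scale, 1 per probe set. How probes were summarised, background-corrected and scaled is not given in the sources used here. Between 373 and 968 values per array were below 0, 736 cells were empty, and 2% trimmed means of the arrays differed by up to 0.44 on the log2 scale. Intensities were therefore quantile normalized, floored at 0 and transformed to log2(intensity + 16). Means and SDs are of normalized values before the floor. Groups were compared with limma 3.58.1 in R 4.3.3 (lmFit, eBayes, two-sided), fitted over all 18767 testable probe sets with Benjamini-Hochberg adjustment and a threshold of 0.05. Empty cells were left out. The fit was tested on simulated data, with changes placed only in brighter probe sets without empty cells. That test therefore does not cover the dim members or Cyp4e2.

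Names come from the platform annotation, updated by gene number through RefSeq's gene table. All 81 P450 probe sets matched. A further 2 probe sets naming a P450 and another gene were left out. Clans follow the family number. Members, gene lists and tests were chosen with earlier results of these data known. Genes named were called members, the 10 brightest, a list with known functions and, for the other lists, called and a few further genes. Cyp12b2, Cyp12c1, Cyp312a1, Cyp318a1, Cyp6t1, CYP9 and Cyp6a genes, Cyp12e1, Cyp304a1 and the neighbours of Cyp4e2 were named after their values were seen. Arrays were renormalized when 1 was left out. The small number of arrays limits precision.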

Additional observations from a re-analysis of the deposited data

How the results depend on the processing

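The count of P450 probe sets called was 3 under every setting except without normalization between arrays (4), without untreated replicate 1 (4) and without 20E replicate 2 (5), and ranged from 3 to 5 on leaving out 1 array. Cyp4e2, Cyp6d4 and Cyp9f2 were among the calls each time. Over the whole array the count of 957 fell to 567 when the offset was 1 rather than 16, and to 629 once probe sets matching more than 1 transcript were dropped, which tests fewer probe sets, and it ranged from 326 to 1173 on leaving out 1 array. The cause of the other changes was not tested. None of the called P450 and listed genes named in the text changed sign under the settings run. Signs over the rest of the array were not followed. Signs of P450 probe sets that were not called turned for between 1 and 16 of 81 under changes of offset, normalization or block, or on leaving out 1 array. Only 32 P450 probe sets had a mean above the array's 40th percentile, so the filtered count leaves most members untested. The files used here hold no detection call, and signal over background was not assessed. Offsets of 1 and 64, median centring and a trend and robust variance model gave the same 3 calls.

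The correlation of same-numbered deviations from the group means was 0.238, 0.374 and −0.02, and that of differently numbered ones ran from −0.397 to 0.338. Deviations within a group of 3 arrays are not independent, so these values cannot decide whether the replicate numbers pair the arrays. With the replicate number as a block, 3 P450 probe sets and 954 of all probe sets passed, and 784 of the latter were among the 957.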
